A study of Mus musculus with 74 samples.

Results

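The promoters of brown adipocytes that were open to a transposase were followed through 1 day. They are the regions of the brown adipose tissue (BAT) ATAC-seq table whose HOMER annotation begins with promoter-TSS, 10629 of its 42572 regions, each 150 bp wide. The remaining 31943 regions lay mostly in introns (16016) and between genes (13426). The promoter regions belong to 9667 gene symbols and 9497 Ensembl genes, and 182 regions have no Ensembl gene. Of the regions, 10099 belong to protein-coding genes and 495 to noncoding RNA genes. Region centres lay from 1000 bp before to 906 bp after the nearest start site, with a median of 47 bp before it, and 7554 (71.1%) lay within 100 bp of it. One region was found for 8800 genes and several for 867, at most 5 for 1 gene (Plec).

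Mice of the strain Adiponectin-Cre:NuTRAP were used. In them a Cre recombinase under the Adiponectin promoter, active in adipocytes, switches on tags on nuclei and on ribosomes, so that adipocyte nuclei can be sorted and adipocyte ribosomes pulled down from frozen tissue. All groups share this genotype and differ by Zeitgeber time (ZT, hours from lights on): ZT1, ZT5, ZT9, ZT13, ZT17 and ZT21. The data are 18 BAT Omni-ATAC libraries of sorted nuclei (3 at each time), 17 BAT libraries of ribosome-bound RNA (3 at each time and 2 at ZT17), 18 ATAC libraries of inguinal white adipose tissue (WAT), and a BMAL1 ChIP-seq peak list of 2 libraries from C57BL6J mice, taken from inguinal WAT at ZT4. Sex, age, diet and the schedules of light and feeding are not given in the labels. Lights are taken to go off at ZT12, as is customary, so ZT13, ZT17 and ZT21 are called the dark phase. The labels do not say that the libraries of a time come from separate animals, so the p-values speak of library-to-library spread alone, which may be technical.

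ATAC-seq reads where a transposase can cut, and so where nucleosomes and other proteins leave DNA accessible. Promoters of active genes are usually open just upstream of the start of transcription, often over DNA rich in G and C, while enhancers in introns and between genes are more specific to a cell type. In the circadian clock, BMAL1 and CLOCK bind E-boxes in the promoters of the Per, Cry, Nr1d and Dbp genes. PER and CRY proteins then restrain BMAL1 and CLOCK, while REV-ERB and ROR receptors repress and activate Arntl, the gene of BMAL1. In brown fat the clock runs beside daily changes in feeding, temperature and the use of lipid for heat.

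Promoter regions of 7 genes are shown because the results on rhythms turn on them. Per1, Ciart and Bhlhe41 are clock genes whose regions hold the E-box CACGTG, and Irs1 is an insulin signalling gene with the same hexamer. Other clock regions, not shown, lack it: the whole regions of Cry2 and Nr1d1 hold no E-box. Nor do the parts with a sequence of the regions of Per3, Nr1d2, Tef and Hlf. For Tef this is its most open region, which was not called rhythmic, and no sequence of its called regions is given. Hdgf holds the D-box TTATGCAA on the other strand. Angptl8 peaked in the dark phase, and Arntl had a strong RNA rhythm without a called promoter rhythm, and neither holds any of the motifs searched for capitals. Capitals mark matches, on either strand, to the E-box CACGTG, the D-box TTATGCAA, the CRE TGACGTCA, the heat shock element GAANNTTC, the glucocorticoid element ACANNNTGT and the CEBP motif TTGCGCAA. All other bases are in lower case. The sequences are from RefSeq (build GRCm38.p6, the assembly also called mm10), read 5′ to 3′ on the strand of the gene, and each region ends upstream of the RefSeq start site.
Per1, chr11:69098740-69098890, plus strand: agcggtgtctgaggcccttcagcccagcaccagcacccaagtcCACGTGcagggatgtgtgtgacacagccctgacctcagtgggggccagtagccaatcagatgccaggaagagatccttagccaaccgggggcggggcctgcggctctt
Ciart, chr3:95882293-95882443, minus strand: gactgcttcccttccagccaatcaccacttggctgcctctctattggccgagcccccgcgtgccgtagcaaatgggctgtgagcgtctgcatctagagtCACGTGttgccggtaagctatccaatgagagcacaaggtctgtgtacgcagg
Bhlhe41, chr6:145865471-145865621, minus strand: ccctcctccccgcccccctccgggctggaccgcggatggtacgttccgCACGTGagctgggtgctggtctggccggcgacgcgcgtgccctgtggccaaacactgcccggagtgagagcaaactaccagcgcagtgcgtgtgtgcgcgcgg
Irs1, chr1:82291526-82291676, minus strand: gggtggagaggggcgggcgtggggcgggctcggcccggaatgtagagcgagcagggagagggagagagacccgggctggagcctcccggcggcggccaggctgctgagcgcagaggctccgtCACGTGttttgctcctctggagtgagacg
Hdgf, chr3:87906695-87906845, plus strand: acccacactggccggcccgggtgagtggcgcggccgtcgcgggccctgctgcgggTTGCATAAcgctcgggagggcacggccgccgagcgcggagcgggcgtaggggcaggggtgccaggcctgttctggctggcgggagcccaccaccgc
Angptl8, chr9:21835284-21835434, plus strand: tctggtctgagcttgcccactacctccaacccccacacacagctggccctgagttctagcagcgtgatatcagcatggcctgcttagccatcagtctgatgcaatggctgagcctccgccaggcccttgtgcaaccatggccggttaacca
Arntl, chr7:113207303-113207453, plus strand: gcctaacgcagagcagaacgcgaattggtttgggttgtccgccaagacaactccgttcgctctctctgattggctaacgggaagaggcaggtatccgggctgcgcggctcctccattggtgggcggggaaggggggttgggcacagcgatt
RefSeq promoter windows reach from 250 bases before to 50 after a start site and held the whole of 4362 of the 10629 regions (41.0%). Among these 4362 regions the E-box occurred in 7.45%, the D-box in 0.596%, the CRE in 3.07%, the heat shock element in 1.88%, the glucocorticoid element in 1.33% and the CEBP motif in 0.275%. A match is a run of letters and not evidence that a factor binds there.

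Promoter regions were more open than the other regions. Their level, in CPM (tags scaled to a common library total by TMM factors over all regions), had a median of 30.3 and a 5th to 95th percentile range of 9.33 to 74.6, against a median of 15.3 in the other regions. The deepest library had 12811242 tags in regions and the shallowest 3959384, and the mean raw tags of a promoter region per library had a median of 209.7 and a lowest value of 50.1. Of the 8 adipocyte markers, 7 had a promoter region (Adipoq, Plin1, Cidec, Fabp4, Pparg, Lipe and Cfd, but not Pnpla2). Of the 8 brown adipocyte markers, 6 had one (Ucp1, Cox7a1, Dio2, Ppargc1a, Prdm16 and Elovl3, but neither Cidea nor Cox8b). No marker of macrophages (7 genes), lymphocytes (7), endothelial cells (6), fibroblasts and progenitors (6), skeletal muscle (5) or erythroid cells (4) had a promoter region. Some were the nearest gene of a BAT region outside promoters: 6 fibroblast and progenitor, 4 endothelial, 3 skeletal muscle, 1 macrophage and 1 lymphocyte marker. In a longer list of 12 skeletal muscle genes 1 had a region, Mylpf, a myosin light chain gene, with a mean of 73.6 CPM and a 24 h rhythm called with scaling over all regions (edgeR adjusted p = 0.028) but not over promoters. In the deposited TPM values the adipocyte markers summed to between 34650 and 49901 per library, the macrophage markers to between 1.45 and 8.49, and the 7 lymphocyte markers are not in that table. Endothelial markers summed to between 0.58 and 11.38 TPM and fibroblast and progenitor markers to between 2.74 and 21.03 TPM. Erythroid markers summed to between 38.0 and 505 TPM and skeletal muscle markers to between 7.94 and 194 TPM. Whether RNA of those cells has a part in any RNA result was not tested.

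The tags that fell in promoters made up a smaller share of a library in the dark phase. The share was 37.3% ± 1.22 at ZT1 (SD, n = 3), 38.2% ± 0.27 at ZT5, 37.3% ± 0.44 at ZT9, 36.6% ± 0.32 at ZT13, 35.4% ± 0.59 at ZT17 and 35.6% ± 0.11 at ZT21. The 3 libraries of ZT5 lay between 38.0% and 38.5%, above all 9 libraries of ZT9, ZT13 and ZT17 and all 3 of ZT21, while 1 library of ZT1 had 36.05%, below the 3 of ZT13 (36.25% to 36.85%). All 6 libraries of ZT17 and ZT21, from 34.75% to 35.9%, lay below the other 12. At ZT1 the shallowest library, of 3959384 tags, had 38.5% and the deepest, of 8550030, had 36.05%, whereas at ZT17 the deepest library, of 12811242 tags, had the highest share of that time, 35.9%. No test was planned for the share, so these are values only. In WAT, with its own region set, promoter regions took 50.2% ± 0.61 of tags at ZT1 and 47.6% ± 0.19 at ZT17 (SD, n = 3), also lowest at ZT17. A change of this size matters for every count that follows. Scaling libraries by the promoter regions alone instead of by all regions moves each promoter value by at most 0.09 on the log2 scale. Values go down at ZT5 and up at ZT17, and the value at ZT5 against that at ZT17 moves by 0.13. Results are therefore given under both scalings. The first asks how a promoter changed relative to all accessible regions, and the second how it changed relative to the other promoters.

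**Figure D1:**
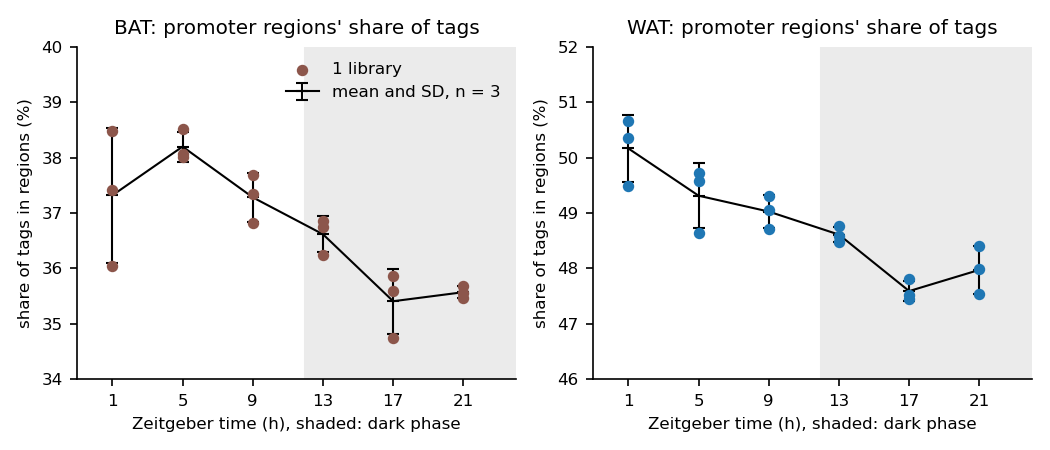
Share of tags in regions (%, vertical axes, which do not start at 0) that fell in promoter regions, by Zeitgeber time (horizontal axes, dark phase shaded), in BAT (left) and WAT (right). Points are libraries, and the line gives the mean and SD of 3 libraries. In BAT the means run from 38.2% at ZT5 to 35.4% at ZT17.

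Promoter accessibility changed over the day in many regions, but by little. With scaling over all regions, edgeR's quasi-likelihood test of a 24 h cosine called 1466 of the 10629 promoter regions (13.8%) at an adjusted p under 0.05, where it called 18.9% of all BAT regions and 20.6% of the others. The fitted peak-to-trough difference of the called promoters had a median of 0.31 on the log2 scale, or 1.24-fold, and 27 of them reached 1. Among called regions outside promoters the median was 0.65, and 871 of 6587 reached 1. Of the 1466 called promoters 1306 (89.1%) peaked in the light phase and 892 (60.8%) between ZT4 and ZT8. Called regions outside promoters peaked in the light in 30.0% of cases. With scaling over promoters alone 713 promoters (6.71%) were called, against 22.9% of all BAT regions under the same scaling. Of these 713, 296 (41.5%) peaked in the light and 417 in the dark. Both scalings called 501 promoters, which is 34.2% of the first list and 70.3% of the second, and in all 501 the fitted peaks of the scalings lay within 4 h of each other. Over all 10629 promoters, called or not, the fitted peak lay in the light in 83.6% under the first scaling and 51.2% under the second.

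So the number of rhythmic promoters and their common time of peak rest on what promoters are measured against. With the promoter share of each library as a covariate, 159 promoters were called, of which 67 peaked in the light. That share is made from these same regions and changed with time, so the covariate takes up part of any rhythm in step with it. Leaving out the library ZT17 replicate 2, which has the lowest promoter share (34.75%), gave 942 calls with scaling over all regions and 549 with scaling over promoters. In the authors' deposited table of JTK_CYCLE results, 790 promoters (7.43%) had a q-value under 0.05, against 9.1% of all BAT regions, and 689 of the 790 had a phase before 12 h. Of the 790, 717 were also called by edgeR with scaling over all regions.

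**Figure D2:**
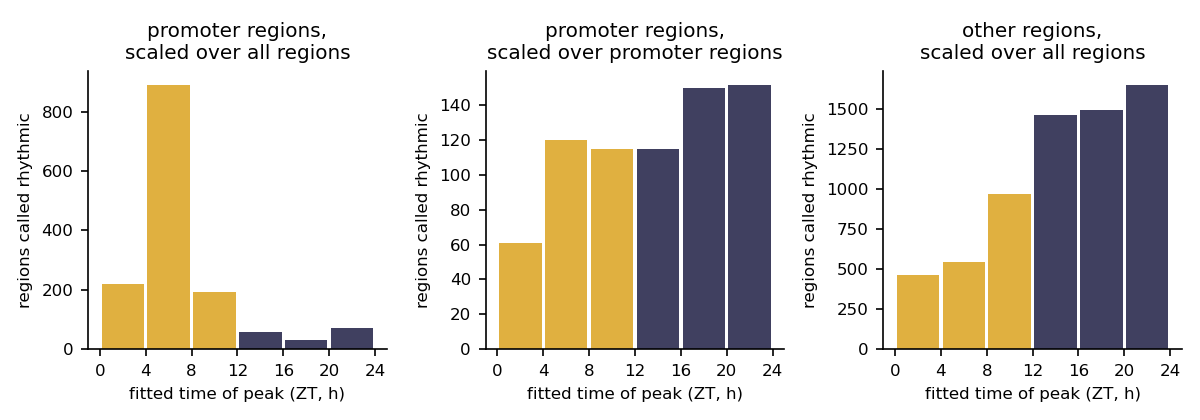
Number of regions called rhythmic (vertical axes) by fitted time of peak in 4 h steps (horizontal axes; light phase in yellow, dark phase in dark blue). Left, 1466 promoter regions with scaling over all regions, of which 892 peak between ZT4 and ZT8. Middle, 713 promoter regions with scaling over promoters, of which 120 do. Right, 6587 regions outside promoters, of which 544 do.

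With scaling over all regions, rhythms were called more often in the more accessible promoters. In 4 groups of promoter regions of equal number, from the lowest to the highest level, 8.05%, 10.5%, 17.2% and 19.4% were called, and the median peak-to-trough of the called regions went from 0.60 to 0.23. Scaling over promoters gave 191, 161, 179 and 182 calls in the same groups, so there the rise with the level was not seen. Regions far before the start site had larger swings than those just before it. Of the 629 regions from 1000 to 501 bp before the start, 107 were called with a median peak-to-trough of 0.45, and 104 were called with scaling over promoters (16.5%). Of the 3254 regions from 50 bp to 1 bp before the start, 351 were called with a median of 0.32, and 143 with scaling over promoters (4.39%). Sizes did not fall evenly towards the start, since the called regions from 100 to 51 bp before it had a median of 0.29, below that of the nearest ones. The far regions had a median level of 21.7 CPM and the near ones of 26.9 CPM. For 43 genes at least 2 promoter regions were called with scaling over all regions, and in 36 of these all peaks lay within 4 h of each other. Of all promoters called under that scaling 60.8% peaked between ZT4 and ZT8, and regions of 1 gene can overlap. This count therefore does not show that regions of a gene change together.

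The promoter regions with the smallest rhythm p-values were those of Ghitm, Gna11, Angptl8, Deaf1, Hdgf, Tinagl1, Cfd, Gstt2, Park7 and Per1. Only Angptl8 and Hdgf of these 10 peaked in the dark phase. All sizes from here on are fitted peak-to-trough log2 differences with their standard error over 18 libraries, with scaling over all regions unless the other scaling is named, and library values are in ascending order within a time. The region of Ghitm (chr14:37135219-37135369), a protein of the inner mitochondrial membrane, had 50.5, 53.3 and 53.4 CPM at ZT1, 58.5, 71.1 and 71.2 at ZT5, 71.6, 73.7 and 77.4 at ZT9, 62.4, 63.6 and 78.4 at ZT13, 55.5, 57.4 and 60.2 at ZT17 and 46.1, 47.7 and 49.6 at ZT21. All libraries of ZT9 and ZT13 were above all of ZT17 and ZT21 (peak-to-trough 0.62 ± 0.07, peak at ZT9.6, adjusted p = 2.99e-05), and the region was called under all 24 alternative settings tried. Cfd encodes complement factor D, or adipsin, a protease secreted by fat cells. Its region (chr10:79890801-79890951), centred 23 bp after the start, had 46.9, 47.4 and 53.8 CPM at ZT1, 47.3, 48.5 and 49.9 at ZT5, 35.3, 36.5 and 39.3 at ZT9, 25.5, 33.6 and 34.4 at ZT13, 30.99, 36.6 and 38.1 at ZT17 and 35.1, 38.9 and 42.4 at ZT21. All 6 libraries of ZT1 and ZT5 lay above the other 12 (peak-to-trough 0.65 ± 0.09, peak at ZT2.4, adjusted p = 0.000295). Hdgf encodes hepatoma-derived growth factor. Its region, shown above, had 14.9, 16.2 and 16.7 CPM at ZT1, 14.5, 15.02 and 16.3 at ZT5, 17.9, 19.98 and 22.5 at ZT9, 22.95, 26.4 and 27.6 at ZT13, 21.4, 21.4 and 24.7 at ZT17 and 15.5, 15.5 and 16.5 at ZT21. The 6 libraries of ZT13 and ZT17 overlapped only with the highest of ZT9 (peak-to-trough 0.78 ± 0.10, peak at ZT13.6, adjusted p = 0.000241). A second Hdgf region, centred 156 bp before the start, was called with a peak at ZT5.5, so 2 regions of this gene that overlap had different fitted peaks. Gstt2, a glutathione transferase, had a larger swing: its region (chr10:75835331-75835481) held 24.6, 30.7 and 33.4 CPM at ZT1, 33.9, 36.03 and 36.1 at ZT5, 25.8, 26.9 and 32.4 at ZT9, 22.6, 27.1 and 32.7 at ZT13, 13.1, 14.4 and 18.01 at ZT17 and 14.7, 15.2 and 15.9 at ZT21. The libraries of ZT17 and ZT21 were all below all others (peak-to-trough 1.19 ± 0.17, peak at ZT6.4, adjusted p = 0.000319).

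The other 4 regions of this group are given by their fits. Gna11, a G protein subunit, had peak-to-trough 0.40 ± 0.05, peak at ZT7.2, adjusted p = 0.00013. Deaf1, a transcription factor, had peak-to-trough 0.64 ± 0.08, peak at ZT6.6, adjusted p = 0.000223. Tinagl1, a matrix protein, had peak-to-trough 0.74 ± 0.10, peak at ZT7.7, adjusted p = 0.00027. Park7, the redox sensor DJ-1, had peak-to-trough 0.48 ± 0.07, peak at ZT5.1, adjusted p = 0.000323, and its 9 light-phase libraries, from 43.1 to 51.5 CPM, lay above its 9 dark-phase libraries, from 33.1 to 41.2 CPM. None of these 4 genes had a called RNA rhythm, with edgeR adjusted p of 0.671 for Gna11, 0.0808 for Deaf1, 0.396 for Tinagl1 and 0.545 for Park7. Nor had Ghitm (0.146), Cfd (0.499), Hdgf (0.0766) and Gstt2 (0.102), whereas Angptl8 and Per1 had one. Without the RNA library ZT21 replicate 2 the edgeR adjusted p was 0.0155 for Deaf1 and 0.00376 for Hdgf. Leaving that library out raised the promoter genes with rhythmic RNA from 833 to 2455. Leaving out most other single libraries lowered that count.

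The core clock list had 19 genes, of which 18 had a promoter region, 24 regions in all. 8 regions of 7 genes (Per1, Per3, Ciart, Nr1d2, Tef, Hlf and Bhlhe41) were called with scaling over all regions, all with a peak in the light, and 4 with scaling over promoters (Per1, Per3, Ciart and Nr1d2). Among all promoters 13.8% were called with the first scaling, 89.1% of these with a peak in the light, and 6.71% with the second. The list's median peak-to-trough was 0.20, against 0.18 over all promoters. By contrast, 15 of the 18 clock genes tested in RNA were called rhythmic there. Per1, a repressor of the clock that is also induced by hormones and light, had the smallest p of the list. Its region, shown above with its E-box, held 26.9, 28.7 and 30.1 CPM at ZT1, 30.1, 32.1 and 32.2 at ZT5, 34.8, 35.4 and 37.4 at ZT9, 35.6, 39.4 and 39.5 at ZT13, 30.99, 33.2 and 33.7 at ZT17 and 24.1, 25.9 and 26.8 at ZT21. The libraries of ZT9 and ZT13 were all above those of the 4 other times, and those of ZT21 were all below (peak-to-trough 0.51 ± 0.07, peak at ZT11.1, adjusted p = 0.000346). Per1 RNA had 12.4, 13.1 and 13.8 CPM at ZT1, 6.76, 11.6 and 14.98 at ZT5, 29.1, 30.8 and 32.9 at ZT9, 34.1, 34.5 and 61.9 at ZT13, 8.44 and 10.9 at ZT17 and 5.77, 6.46 and 9.73 at ZT21, with a fitted size of 2.17 ± 0.35 and a peak at ZT10.9, 0.28 h before that of the promoter. Ciart, a repressor of BMAL1 and CLOCK activity, had 38.6, 43.2 and 43.4 CPM at ZT1, 39.8, 41.3 and 46.7 at ZT5, 43.9, 46.9 and 53.5 at ZT9, 52.2, 52.3 and 58.8 at ZT13, 40.9, 41.5 and 42.4 at ZT17 and 32.2, 34.2 and 34.8 at ZT21. Its libraries of ZT21 were below all others (peak-to-trough 0.52 ± 0.09, peak at ZT10.5, adjusted p = 0.00216), and its RNA peaked at ZT12.6 with a size of 2.86 ± 0.44. Per3 had 40.9, 41.1 and 48.004 CPM at ZT1, 43.6, 46.5 and 47.4 at ZT5, 49.6, 50.3 and 52.9 at ZT9, 48.05, 53.9 and 56.4 at ZT13, 43.2, 45.8 and 46.2 at ZT17 and 39.3, 43.6 and 44.95 at ZT21, so ZT13 lay above all other times except ZT9, with which it overlapped (peak-to-trough 0.32 ± 0.06, peak at ZT10.9, adjusted p = 0.00616). Its RNA peaked at ZT13.4 with a size of 1.51 ± 0.14. Nr1d2, which encodes REV-ERB beta, was the most open of these with a mean of 103.9 CPM. Its libraries of ZT17 and ZT21 were all below those of ZT5 and ZT9 (peak-to-trough 0.28 ± 0.04, peak at ZT7.2, adjusted p = 0.000973), and with scaling over promoters its size was 0.18 and its adjusted p 0.0149. Per1, Per3 and Ciart were called under all 24 alternative settings. Bhlhe41 (peak-to-trough 0.34 ± 0.10, peak at ZT8.3, adjusted p = 0.0423) lost its call in 15 of 24 settings and Hlf (peak-to-trough 0.24 ± 0.07, peak at ZT9.0, adjusted p = 0.0463) in 20 of 24, both with scaling over promoters among them.

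Other clock promoters did not pass the test, although their RNA did. Arntl RNA had 6.81, 10.7 and 12.6 CPM at ZT1, 3.98, 5.91 and 6.94 at ZT5, 0, 0 and 0.857 at ZT9, 0, 0.584 and 0.642 at ZT13, 1.34 and 2.48 at ZT17 and 6.17, 10.4 and 11.3 at ZT21, a fitted size of 4.92 ± 0.54 with a peak at ZT0.1. Its fit includes 3 libraries at 0, so the size is no bound. The Arntl promoter region, shown above, had 50.2, 55.1 and 61.7 CPM at ZT1, 42.1, 48.2 and 53.6 at ZT5, 43.7, 50.6 and 53.6 at ZT9, 46.9, 49.01 and 52.5 at ZT13, 47.8, 48.8 and 51.2 at ZT17 and 49.2, 50.8 and 58.7 at ZT21, so that every time overlapped with every other (peak-to-trough 0.15 ± 0.08, peak at ZT22.5, adjusted p = 0.33). Dbp, an output transcription factor that binds D-boxes, had RNA of 8.30, 11.96 and 18.5 CPM at ZT1, 55.6, 57.7 and 63.6 at ZT5, 63.5, 73.9 and 96.5 at ZT9, 65.8, 87.6 and 93.2 at ZT13, 38.3 and 39.2 at ZT17 and 5.79, 10.2 and 11.8 at ZT21, with a size of 3.35 ± 0.33. Its promoter region had values from 61.4 to 81.6 CPM over all 18 libraries (peak-to-trough 0.16 ± 0.06, peak at ZT6.8, adjusted p = 0.102). Nr1d1, which encodes REV-ERB alpha, had an RNA size of 2.24 ± 0.44 and a promoter region with peak-to-trough 0.24 ± 0.07, peak at ZT4.1, adjusted p = 0.0636. The sizes of Per2, Cry1, Cry2, Clock, Nfil3 and Bhlhe40 lay between 0.05 (Per2) and 0.20 (Cry1), with edgeR adjusted p from 0.077 (Bhlhe40) to 0.819 (Per2). Cry1 RNA peaked at ZT22.7 and Nfil3 RNA at ZT19.8, both called. A p above the threshold does not show that a promoter was constant. Npas2, the other partner of BMAL1, had no promoter region.

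**Figure D3:**
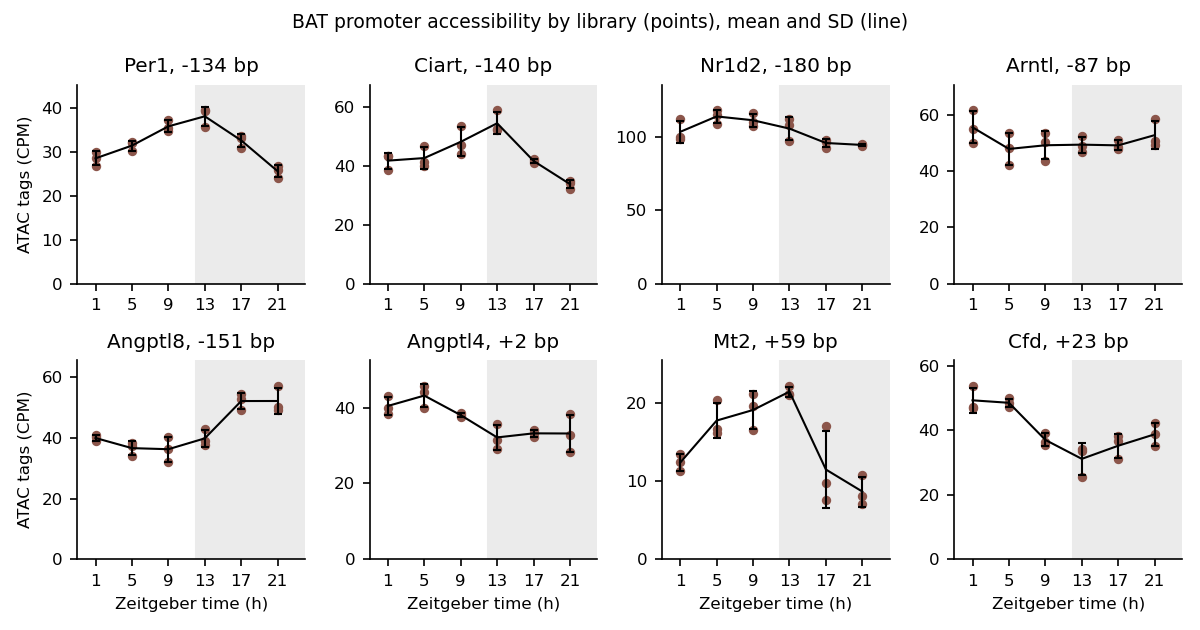
Accessibility (CPM, vertical axes from 0) of 8 promoter regions by Zeitgeber time (horizontal axes, dark phase shaded). Points are the 18 libraries, lines the mean and SD of 3 libraries, and titles give the distance of the region's centre to the start site. Per1 and Ciart are highest at ZT13, Angptl8 at ZT17 and ZT21, Angptl4 and Cfd in the first part of the light phase, and Arntl is nearly flat.

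Genes around lipoprotein lipase, which frees fatty acids from blood lipoproteins for uptake by fat, had promoters with opposite times. ANGPTL4 and ANGPTL8 both regulate that enzyme. Of the list's 13 regions 3 were called with scaling over all regions (Angptl8, Angptl4 and Slc27a1), beside 13.8% of all promoters. With scaling over promoters 2 were called, beside 6.71%. The Angptl8 region, shown above, had 38.9, 40.2 and 40.9 CPM at ZT1, 34.03, 37.4 and 38.4 at ZT5, 32.2, 36.3 and 40.3 at ZT9, 37.7, 38.9 and 42.98 at ZT13, 49.3, 52.7 and 54.5 at ZT17 and 49.1, 50.3 and 57.1 at ZT21. All 6 libraries of ZT17 and ZT21 lay above the other 12 (peak-to-trough 0.60 ± 0.08, peak at ZT19.1, adjusted p = 0.000132, called also with scaling over promoters at 4.21e-05). Angptl8 RNA had 8.80, 13.4 and 15.4 CPM at ZT1, 8.66, 8.87 and 10.3 at ZT5, 3.06, 4.94 and 5.75 at ZT9, 6.55, 7.83 and 8.14 at ZT13, 10.6 and 41.2 at ZT17 and 18.5, 23.2 and 71.2 at ZT21 (2.76 ± 0.42, peak at ZT20.5). The Angptl4 region (chr17:33781498-33781648) had 38.3, 40.003 and 43.1 CPM at ZT1, 39.9, 44.1 and 45.8 at ZT5, 37.6, 38.1 and 38.6 at ZT9, 29.2, 31.5 and 35.9 at ZT13, 32.2, 33.4 and 34.1 at ZT17 and 28.4, 32.9 and 38.3 at ZT21. Its 9 light-phase libraries lay between 37.6 and 45.8 CPM and its 9 dark-phase libraries between 28.4 and 38.3 CPM, an overlap of 1 dark-phase library of ZT21 with ZT9 (peak-to-trough 0.43 ± 0.08, peak at ZT4.4, adjusted p = 0.00374). Angptl4 RNA had 169.5, 210.1 and 218 CPM at ZT1, 121, 156 and 157 at ZT5, 58.8, 81.2 and 119 at ZT9, 38.3, 41.1 and 57.2 at ZT13, 39.8 and 62.4 at ZT17 and 47.1, 73.5 and 114 at ZT21 (2.14 ± 0.26, peak at ZT2.8). Slc27a1, a fatty acid transporter, had peak-to-trough 0.33 ± 0.09, peak at ZT5.3, adjusted p = 0.0382, and was not called with scaling over promoters (0.169). Lpl itself had peak-to-trough 0.21 ± 0.07, peak at ZT5.9, adjusted p = 0.065.

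The fat cell's metabolic lists differed in how many promoters were called, beside 13.8% of all promoters with scaling over all regions and 6.71% with scaling over promoters. The lipogenesis list had 0 of 15 regions called, cholesterol synthesis 0 of 16, triglyceride synthesis 0 of 11, and lipolysis and droplet coats 0 of 12. These 4 lists had, with scaling over promoters, 1, 2, 2 and 3 calls, all with peaks in the dark phase. Fatty acid oxidation had 6 of 22, 5 of them with a peak in the light, and 1 with scaling over promoters. Among these were both regions of Etfb, an electron carrier subunit (peak-to-trough 0.27 ± 0.06, peak at ZT4.1, adjusted p = 0.00823, and peak-to-trough 0.25 ± 0.06, peak at ZT3.4, adjusted p = 0.0147), Hadh (peak-to-trough 0.34 ± 0.08, peak at ZT7.2, adjusted p = 0.0151) and Acot11, a thioesterase induced by cold in brown fat (peak-to-trough 0.37 ± 0.08, peak at ZT12.2, adjusted p = 0.0113). Acot11 was the one of these that kept its call with scaling over promoters (0.0058). Its region had 23.1, 23.2 and 25.9 CPM at ZT1, 25.7, 26.9 and 29.7 at ZT5, 26.9, 28.2 and 31.1 at ZT9, 30.3, 33.1 and 33.8 at ZT13, 27.2, 29.1 and 29.7 at ZT17 and 22.3, 25.9 and 27.7 at ZT21, and its RNA was also rhythmic (1.299 ± 0.23, peak at ZT16.1). Glycolysis and the citrate cycle had 6 of 30 with scaling over promoters, all with peaks in the dark phase. With scaling over all regions 3 were called, all with peaks in the light. Among these 3 was Pfkfb3, whose product sets the pace of glycolysis (peak-to-trough 0.32 ± 0.08, peak at ZT1.8, adjusted p = 0.0263). Its RNA had a size of 1.75 ± 0.25 and a peak at ZT23.7. The respiratory chain and ATP synthase had 7 of 42 under either scaling, but 6 of the 7 peaked in the light under the first and 2 under the second. Atp5g1, a subunit c gene of ATP synthase, had 20.95, 22.03 and 22.6 CPM at ZT1, 14.3, 14.6 and 16.5 at ZT5, 11.1, 11.8 and 14.4 at ZT9, 13.2, 13.7 and 14.1 at ZT13, 10.6, 12.1 and 12.5 at ZT17 and 11.3, 15.5 and 22.5 at ZT21 (peak-to-trough 0.73 ± 0.17, peak at ZT0.9, adjusted p = 0.0147). Its 3 libraries of ZT1 were above all others but 1 of ZT21, and its RNA, called too, peaked at ZT23.3 (2.43 ± 0.44). Ndufs7 of complex I (peak-to-trough 0.48 ± 0.10, peak at ZT23.5, adjusted p = 0.00756) and its RNA peaked at different times, ZT12.8 for the RNA, whereas for Ndufa4 both were close (peak-to-trough 0.56 ± 0.13, peak at ZT10.0, adjusted p = 0.0168, RNA peak at ZT11.1).

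Insulin and feeding genes had 4 of 18 regions called with scaling over all regions, beside 13.8% of all promoters: Irs1, Irs2, Foxo1 and Foxo3. All peaked in the light phase, as did 89.1% of all called promoters. With scaling over promoters 2 of the 18 were called, beside 6.71% of all promoters, 1 of them with a peak in the light. Irs1, an adaptor of the insulin receptor, had 78.8, 84.4 and 87.6 CPM at ZT1, 80.3, 81.4 and 81.4 at ZT5, 69.8, 74.9 and 75.8 at ZT9, 69.6, 70.05 and 76.9 at ZT13, 62.2, 73.3 and 74.2 at ZT17 and 71.8, 73.7 and 75.4 at ZT21 (peak-to-trough 0.24 ± 0.05, peak at ZT3.0, adjusted p = 0.0104), with the ZT1 and ZT5 libraries above all others. Its RNA was rhythmic with a size of 1.97 ± 0.30 and a peak at ZT23.5. Irs2 (peak-to-trough 0.28 ± 0.06, peak at ZT7.2, adjusted p = 0.0126), Foxo1 (peak-to-trough 0.31 ± 0.06, peak at ZT6.5, adjusted p = 0.00655) and Foxo3 (peak-to-trough 0.24 ± 0.06, peak at ZT5.3, adjusted p = 0.0302) lost their calls with scaling over promoters, and none had a called RNA rhythm (edgeR adjusted p 0.114, 0.0609 and 0.0584).

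The lists of genes that answer glucocorticoids, heat and misfolded proteins are short. Their counts stand beside 13.8% of all promoters called with scaling over all regions and 6.71% with scaling over promoters. The glucocorticoid list had 4 of 15 regions called and 3 with scaling over promoters, and the 4 were Per1, Mt1, Mt2 and Errfi1. The Mt2 region (chr8:94172602-94172752), at a metallothionein gene that binds zinc, had 11.2, 12.4 and 13.4 CPM at ZT1, 16.2, 16.7 and 20.4 at ZT5, 16.5, 19.6 and 21.2 at ZT9, 20.998, 21.2 and 22.2 at ZT13, 7.60, 9.75 and 17.1 at ZT17 and 7.08, 8.09 and 10.8 at ZT21. ZT13 was above ZT1, ZT17 and ZT21 in every library (peak-to-trough 1.21 ± 0.20, peak at ZT9.4, adjusted p = 0.00124), and Mt2 RNA had its peak at ZT10.4 (1.77 ± 0.27). Mt1, its neighbour gene, had a more open and flatter promoter (peak-to-trough 0.29 ± 0.05, peak at ZT6.8, adjusted p = 0.0018, mean of 65.7 CPM against 15.1 at Mt2) and an RNA peak at ZT11.7. The heat shock list had 6 of 16 called, all with a peak in the light, and 4 with scaling over promoters. Hsp90aa1, an inducible chaperone, had 32.98, 35.1 and 37.6 CPM at ZT1, 33.6, 34.2 and 35.1 at ZT5, 35.1, 37.4 and 38.6 at ZT9, 28.8, 30.5 and 31.005 at ZT13, 26.3, 27.3 and 27.8 at ZT17 and 25.6, 26.8 and 28.8 at ZT21, with no overlap between light and dark (peak-to-trough 0.47 ± 0.07, peak at ZT6.2, adjusted p = 0.000891). Its RNA did not pass the test (1.301 ± 0.42, adjusted p = 0.0982), but passed without the RNA library ZT21 replicate 2 (adjusted p = 0.00396). Hspb1, a small heat shock protein, had 30.1, 31.4 and 32.2 CPM at ZT1, 27.4, 30.4 and 31.7 at ZT5, 21.03, 22.6 and 23.04 at ZT9, 18.1, 23.6 and 28.2 at ZT13, 20.2, 23.9 and 26.9 at ZT17 and 28.6, 31.1 and 38.02 at ZT21 (peak-to-trough 0.60 ± 0.12, peak at ZT0.2, adjusted p = 0.00522), and its RNA of 212, 215 and 233 CPM at ZT1, 422, 708 and 763 at ZT5, 203, 344 and 367 at ZT9, 196, 229 and 288 at ZT13, 149.9 and 186 at ZT17 and 131, 134 and 269 at ZT21 peaked at ZT6.2. The 3 libraries of ZT5 were the highest in RNA, while in the promoter ZT21 and ZT1 were as high as ZT5. The ER stress list had 4 of 15 called, Hspa5, Ern1, Atf4 and Pdia4, with sizes from 0.23 to 0.26 and peaks from ZT3.3 to ZT5.0. Hspa5, the chaperone BiP, was the one that kept its call with scaling over promoters (adjusted p = 0.0286). Immediate early genes had 3 of 16, Junb, Jun and Btg2, with Junb the largest (peak-to-trough 0.40 ± 0.08, peak at ZT7.3, adjusted p = 0.00463).

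For genes that every cell uses, the counts under the first and the second scaling stand beside 13.8% and 6.71% of all promoters. Of 75 regions of cytosolic ribosomal protein genes 12 were called with scaling over all regions, all in the light, and 1 with scaling over promoters. Mitochondrial ribosomal proteins had 3 of 53 against 2, and the proteasome 4 of 29 against 1. Of the members described here, Rpl13 had a size of 0.33 ± 0.08, Psmd6 of 0.41 ± 0.10 and Mrps16 of 0.17 ± 0.05. RNA of these 3 genes did not pass the test (edgeR adjusted p of 0.323 for Rpl13, 0.12 for Psmd6 and 0.16 for Mrps16), although that of Mrps16 did without the RNA library ZT21 replicate 2 (0.0121).

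The brown fat program, genes for heat production and brown cell identity, had 23 regions at 18 of 22 genes, and 1 was called with scaling over all regions (median size of the list 0.21), that of Ppara, a receptor that drives fatty acid oxidation (peak-to-trough 0.29 ± 0.08, peak at ZT11.2, adjusted p = 0.0333). With scaling over promoters 2 regions of this list were called. The list counts of this paragraph stand beside 13.8% of all promoters called under the first scaling and 6.71% under the second. Ucp1, the uncoupling protein of thermogenesis, had 19.4, 21.6 and 23.3 CPM at ZT1, 18.7, 26.9 and 37.7 at ZT5, 9.57, 9.96 and 13.98 at ZT9, 9.92, 11.5 and 21.6 at ZT13, 15.7, 43.7 and 50.5 at ZT17 and 19.8, 20.7 and 24.1 at ZT21. The widest spread was at ZT17, and every time overlapped with another (peak-to-trough 0.91 ± 0.41, peak at ZT21.0, adjusted p = 0.223). Ucp1 RNA had a size of 0.95 ± 0.35 (adjusted p = 0.143, and 0.00145 without the RNA library ZT21 replicate 2). At Ppargc1a, its coactivator, the fit gave peak-to-trough 0.35 ± 0.13, peak at ZT10.5, adjusted p = 0.146. No promoter region was found for Cidea, Adrb3 or Ckb. Pparg, the master regulator of fat cells, had 4 promoter regions, and the most open one (chr6:115362194-115362344) had peak-to-trough 0.15 ± 0.09, peak at ZT6.6, adjusted p = 0.434. Adipoq, the gene whose promoter drives Cre in these mice, had 85.3, 90.6 and 90.7 CPM at ZT1, 81.7, 82.99 and 90.7 at ZT5, 66.5, 68.3 and 79.4 at ZT9, 78.2, 80.1 and 85.97 at ZT13, 82.5, 82.8 and 86.2 at ZT17 and 76.9, 81.1 and 89.5 at ZT21 (peak-to-trough 0.19 ± 0.07, peak at ZT22.9, adjusted p = 0.111), and was called with scaling over promoters at 0.0371 with a peak at ZT21.1. Fasn, the fatty acid synthase, had peak-to-trough 0.23 ± 0.10, peak at ZT20.1, adjusted p = 0.215, and a dark-phase level above the light-phase one with scaling over promoters only (0.22 on the log2 scale, adjusted p = 0.0366, against 0.14 and 0.158). Of the adipogenic factors 1 of 27 regions was called, Klf15 (peak-to-trough 0.24 ± 0.07, peak at ZT6.3, adjusted p = 0.0398), and of the adipokines 2 of 9, Cfd and Nampt (peak-to-trough 0.17 ± 0.05, peak at ZT6.1, adjusted p = 0.0382).

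A direct contrast of the dark-phase with the light-phase times gave 1299 promoters past the threshold with scaling over all regions, 97 higher and 1202 lower in the dark. Among all BAT regions 8.32% were higher and 6.12% lower, against 0.913% and 11.3% of promoters. Scaling over promoters gave 610 calls, 358 higher and 252 lower in the dark, where 16.7% of all BAT regions were higher and 2.39% lower. The scaling turned the balance of the calls from 92.5% lower to 41.3% lower. The median difference of all promoters was -0.07 (log2, dark minus light) under the first and -0.0026 under the second. With the promoter share of each library as a covariate 2 promoters were called. That share is made from these same regions and was lowest at ZT17 and ZT21. The covariate therefore takes up part of the contrast itself. Leaving out ZT17 replicate 2 gave 838 calls and leaving out ZT9 replicate 1 gave 851, with scaling over all regions. The named differences had the same sign and passed under both scalings, and all 10 missed the threshold with the covariate. Higher in the dark were Fmo1, a flavin monooxygenase (0.37 ± 0.04), Ppp1r3b, a glycogen-targeting subunit of protein phosphatase (0.42 ± 0.06), Angptl8 (0.34 ± 0.05), Marveld1 (0.46 ± 0.07) and Masp2 (0.48 ± 0.08). Lower in the dark were Gstt2 (-0.73 ± 0.08), Deaf1 (-0.42 ± 0.06), Park7 (-0.32 ± 0.05), Hsp90aa1 (-0.34 ± 0.05) and Plekha4 (-0.48 ± 0.07). The Ppp1r3b region (chr8:35375535-35375685) had 28.002, 29.02 and 34.3 CPM at ZT1, 37.8, 38.9 and 44.1 at ZT5, 34.6, 39.05 and 41.5 at ZT9, 43.5, 44.2 and 44.3 at ZT13, 42.8, 49.7 and 55.6 at ZT17 and 45.5, 48.1 and 56.6 at ZT21, with its 9 dark-phase libraries above all light-phase ones but 1 of ZT5. Its RNA had 93.02, 94.6 and 137 CPM at ZT1, 137, 139 and 168 at ZT5, 134, 200.2 and 202 at ZT9, 180.0, 261 and 269.5 at ZT13, 303 and 498 at ZT17 and 269.7, 396 and 418 at ZT21 (1.63 ± 0.29, peak at ZT17.0), beside a promoter peak at ZT16.7. The Fmo1 region had 28.4, 32.95 and 34.03 CPM at ZT1, 46.01, 48.5 and 55.4 at ZT5, 47.7, 48.4 and 50.3 at ZT9, 58.5, 59.1 and 60.4 at ZT13, 56.9, 58.6 and 59.9 at ZT17 and 46.3, 48.3 and 52.4 at ZT21. Its lowest time was ZT1 and its highest ZT13 and ZT17, which did not overlap with the other 4.

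Setting promoters beside the RNA of their genes, 8351 genes with a promoter region were tested in RNA, and 833 of them (9.98%) had a rhythmic RNA, against 9.17% of all 12394 genes tested and 303 of 4043 (7.49%) of those without a promoter region. RNA here is a relative level per library, in which fewer cells of a type and less RNA per cell cannot be told apart. A promoter region was called with scaling over all regions in 1264 of the 8351 genes, and 176 genes were rhythmic in both, which is 13.9% of the genes with a called promoter and 21.1% of those with rhythmic RNA. A called promoter was found in 14.5% of the genes without rhythmic RNA. In 93 of the 176 (52.8%) the peaks lay within 4 h, where 35.3% of all 8351 genes had peaks that close. With scaling over promoters 112 genes were rhythmic in both, 19.7% of the genes with a called promoter and 13.5% of those with rhythmic RNA, against 6.08% of genes without rhythmic RNA. In 74 of the 112 (66.1%) the peaks lay within 4 h, against 37.3% of all genes. The median of promoter minus RNA peak was -1.05 h in these 112, and the fitted RNA peak was the later one in 75 of them. Sampling was every 4 h, and in 12 of the 112 the peaks lay over 8 h apart. These values therefore do not establish which came first. Genes with strong RNA rhythms had a called promoter more often. Of the 45 genes whose RNA changed by 2 or more on the log2 scale, 17 (37.8%) had a called promoter with scaling over all regions and 20 (44.4%) with scaling over promoters. Of the 486 below 1 it was 18.3% and 9.88%. The accessibility sizes were small beside those of RNA, with medians of 0.38 for the promoter and 1.115 for the RNA in the 112 genes.

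These counts depend on single RNA libraries. Leaving out the RNA library ZT21 replicate 2 changed them most. Without it 2455 genes with a promoter had rhythmic RNA and 405 were rhythmic in both, 156 of them (38.5%) within 4 h. The number with scaling over promoters was 212, of which 121 (57.1%) were within 4 h, and it was 68 without each of ZT1 replicate 2, ZT1 replicate 3 and ZT13 replicate 3, with 82.3%, 80.9% and 77.9% within 4 h. Without ZT1 replicate 2 rhythmic RNA fell to 345 genes, without ZT1 replicate 3 to 362, without ZT13 replicate 3 to 375, without ZT21 replicate 1 to 437, without ZT9 replicate 2 to 445, without ZT9 replicate 3 to 501, without ZT17 replicate 2 to 520, without ZT13 replicate 2 to 527 and without ZT21 replicate 3 to 531. Genes rhythmic in both numbered 95, 93, 100, 109 and 116 without ZT1 replicate 2, ZT1 replicate 3, ZT13 replicate 3, ZT21 replicate 1 and ZT9 replicate 2, and in these 5 settings between 57.8% and 64.7% had peaks within 4 h. Among the named genes called in both with scaling over promoters, the peaks lay close in Per1, Per3, Ciart, Nr1d2, Angptl4, Angptl8, Mt2, Irs1, Ppp1r3b, Acot11, Atp5g1, Junb, Marveld1 and Ndufa4. They lay more than 4 h apart in Mt1, Hspb1, Hspa4l, Adipoq and Ndufs7.

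**Figure D4:**
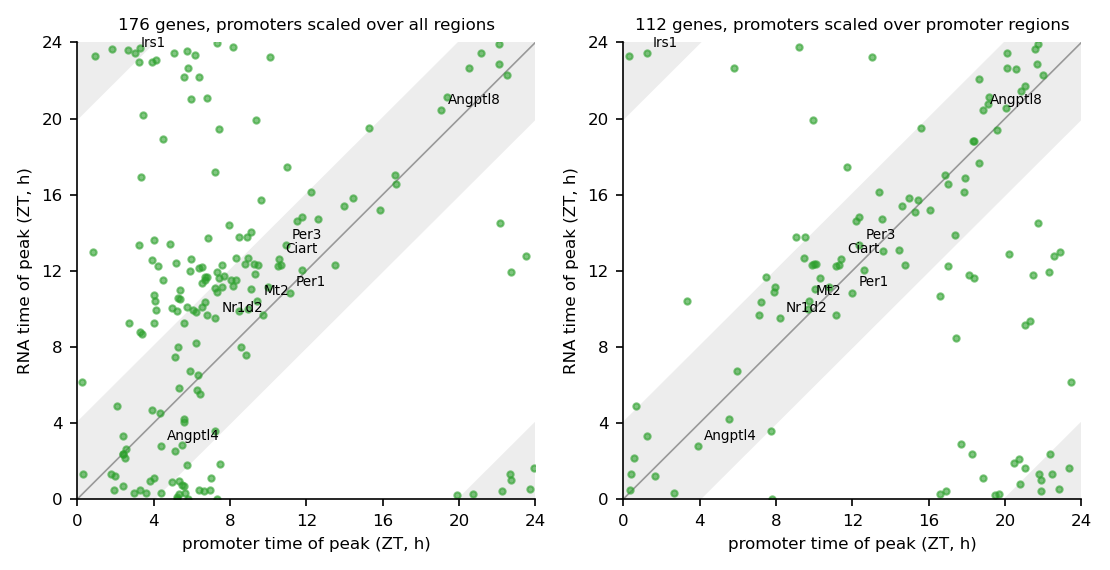
Fitted time of the RNA peak (vertical axes, ZT in h) against that of the promoter peak (horizontal axes) for the genes rhythmic in both. Left, 176 genes with scaling over all regions. Right, 112 genes with scaling over promoters. Lines mark equal times, and the grey band 4 h to either side, which holds 93 of 176 and 74 of 112 genes.

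Base composition moved with the result. Among the 4362 promoters with a whole RefSeq sequence, which is under 80% of the members, so that no check over all of them can be made, the share of G and C had a median of 65.6%. In 4 groups of nearly equal number from the lowest G and C (36.4% to 59.6%) to the highest (72.2% to 93.4%), 8.48%, 11.3%, 14.8% and, in the last, 208 of 1039 were called with scaling over all regions, and the share of calls with a peak in the light went from 76.3% to 97.6%. With scaling over promoters 6.65%, 4.29%, 4.88% and 5.10% were called, with 12.3%, 28.6%, 54.7% and 71.7% of them in the light. So under the second scaling the number of calls no longer rose with G and C, but the time of peak still did. Promoters called with a peak from ZT0 to ZT8 under that scaling had a median of 71.5% G and C, and those with a peak from ZT14 to ZT24 of 59.6%. The part of base composition in the peak times was not tested.

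**Figure D5:**
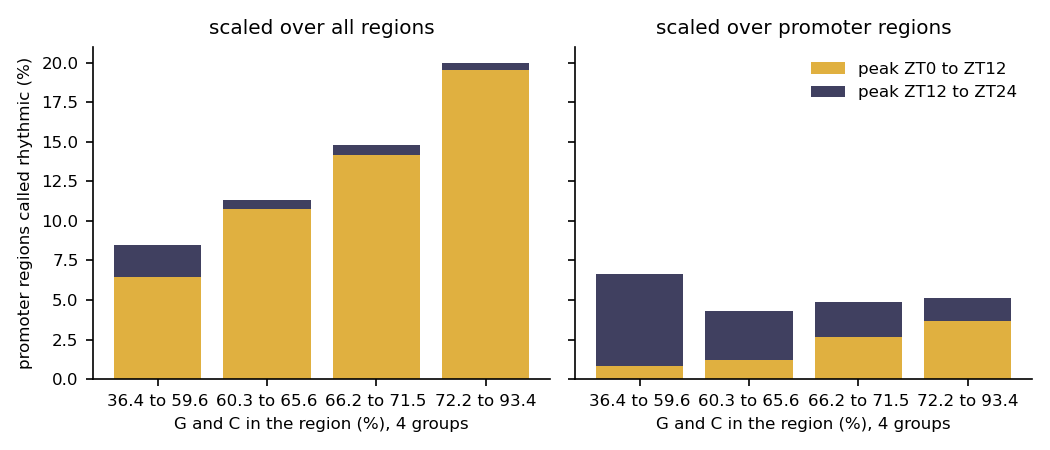
Share of promoter regions called rhythmic (%, vertical axis from 0) in 4 groups of 4362 regions by their content of G and C (horizontal axes). Left, scaling over all regions, where calls go from 8.48% to 208 of 1039 regions. Right, scaling over promoters, where they go from 6.65% to 5.10%. Colours divide the calls by peak in the light or dark phase.

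Short motifs were counted on both strands in the same 4362 sequences. They can overlap each other, and a sequence with several matches counts once for each motif. Of the 113 promoters called with scaling over promoters and a peak from ZT14 to ZT24, 10.6% held TGANTCA against 2.11% of all 4362, 15.0% held the ROR half-site AGGTCA against 4.93%, and 35.4% held the GC box GGGCGG against 64.4%. Of the 62 with a peak from ZT0 to ZT8, 1.61% held TGANTCA, 3.23% AGGTCA and 75.8% GGGCGG. Of the 53 with a peak from ZT8 to ZT14, 3.77% held the D-box TTATGCAA (2 regions) against 0.596% of all. The E-box was held by 11.3%, 7.55% and 7.08% of the promoters peaking from ZT0 to ZT8, ZT8 to ZT14 and ZT14 to ZT24, against 7.45% of all. Motifs rich in A and T are rarer where G and C are frequent, and the sets differ in G and C, as given above.

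BMAL1, the partner of CLOCK, had 10368 peaks of 212 bp in inguinal WAT, and 3593 promoters of BAT (33.8%) overlapped one by at least 75 bp, against 8.18% of the other BAT regions. These are binding sites of another depot, at 1 time and in another strain. Promoters over a BMAL1 peak were called in 16.2% of cases with scaling over all regions and 4.81% with scaling over promoters. Those over no peak were called in 12.55% and 7.67%, so the order of the groups turned with the scaling. Of the 227 promoters over the 500 peaks with the highest authors' score, 29.1% and 8.81% were called, and RNA was rhythmic in 36 of their 215 tested genes (16.7%), against 563 of 5384 (10.5%) for promoters over no peak. Over any BMAL1 peak it was 307 of 3285 (9.35%), the lowest share of the 3. Among promoters over the 500 peaks of highest score, the E-box CACGTG was in 40.7% of the 113 with a sequence. It was in 4.11% of the 2678 over no peak. The strong peaks lay over the promoters of Dbp (score 127.2), Ciart (89.7), Per2 (86.8), Nr1d1 (85.1), Cry2 (40.4), Per1 (40.2), Hlf (36.6), Hjurp (29.1), Nampt (24.5), Junb (22.8), Bhlhe41 (21.6), Pfkfb3 (19.2), Klf15 (16.1) and Ndufs7 (15.2) among the named genes. Of these, Per1, Ciart, Junb and Ndufs7 were called rhythmic under both scalings, while Dbp, Per2 and Nr1d1, with 3 of the 4 highest scores here, were called under neither. Of the 227 strongly bound promoters 20 were called with scaling over promoters, and among them, named after their values were seen, were those of Loxl1, Tet3, Usp53, Crebrf, Rbm4b and Cipc.

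Most of these promoters were also open in white fat. Of the 10629, 8899 (83.7%) overlapped a WAT region by at least 75 bp, against 39.8% of the other BAT regions. The WAT libraries held fewer tags, from 1623006 to 5294923, and a missing WAT region shows only that none was called there. The 1730 promoters without a WAT region were less open in BAT, with a median of 13.0 CPM against 33.3. They included 13 of the 23 regions of the brown fat program, at Ucp1, Dio2, Ppara, Ppargc1a, Prdm16, Zic1, Lhx8, Ebf2, Elovl3, Kcnk3, Gk and Pdk4. Dio2 makes active thyroid hormone, PRDM16, EBF2, ZIC1 and LHX8 are transcription factors of brown fat, ELOVL3 lengthens fatty acids and KCNK3 is a potassium channel. Of the clock list 4 of 24 regions lacked one, that of Per1 among them, and of the respiratory chain 7 of 42. Of the 1730, 209 (12.1%) were called rhythmic with scaling over all regions and 33.5% of those peaked in the dark, against 1257 of 8899 (14.1%) and 7.16%. Scaled over promoters, the counts were 199 (11.5%) against 514 (5.78%).

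How open a promoter was said little about how much RNA its gene had. Across 8730 genes with a promoter region and a deposited TPM value (a transcript level per length), Spearman's rho between the summed promoter level and the mean TPM was 0.18. Genes are not independent replicates, and all values come from the same 2 sets of libraries, so no p is given. In 4 equal groups of genes from the least to the most accessible, the median TPM was 2.04, 3.87, 4.45 and 5.87. With genes at 0 TPM included the correlation was 0.25. The most open promoter regions were those of Hjurp (156 CPM), a centromere protein with 0.698 TPM, and of Hibch, Sertad2, Gpr155 and Pcnx4 (117 to 121 CPM), of which Hibch, an enzyme of valine breakdown, had 62.6 TPM and the other 3 below 1. The 5 least open, at Sept9, Dnaic2, Rcan2, Stox2 and Jmjd1c, all had about 7.10 CPM. Each region is credited to a single nearest start site, so a promoter shared by 2 genes counts for 1 of them. Still, of the 500 genes with the highest TPM, 393 (78.6%) had a promoter region, against 62.1% of the 14055 genes in that table.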

How the data were processed

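The deposited BAT and WAT ATAC tables hold raw tag counts per 150 bp region, made with HOMER on one mm10 region set per depot, per the file headers. The aligner of the ATAC reads and the versions of HOMER and JTK_CYCLE are not given in the sources used here. The authors' RNA table holds expected counts per Ensembl gene without normalization, and 1 sample column that matched no listed sample was not used. Tools listed in the submitters' processing notes are DESeq2, limma, HOMER, RSEM 1.3.0 and STAR 2.7.5, with mm10 as build and, for the ChIP samples, Bowtie2 2.4.1. The authors' JTK_CYCLE tables give p-values, q-values and the phase in hours per region or gene, and the RNA one also gives TPM per library. The deposited BMAL1 list gives a HOMER peak score from a pooled peak set, per the file headers. Region coordinates were taken as 1-based, as deposited.

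Promoter regions were selected by their annotation, and fits ran over all regions or all genes. Expected counts were rounded. In R 4.3.3, edgeR 4.0.16 used TMM factors, filterByExpr by time, and quasi-likelihood F tests of a cosine and sine of period 24 h together, or of dark minus light times, with Benjamini-Hochberg adjustment and calls at an adjusted p under 0.05. Sizes are fitted peak-to-trough log2 differences with delta-method SE. Each fit was repeated with TMM over promoters alone, with RLE factors, without the filter, with DESeq2 1.42.0, with the replicate number as a block, with the promoter share as a covariate, with time as a factor and without each library. Overlaps used bedtools 2.31.1, motifs and figures Python 3.11.15. The rhythm test was tested on simulated data. BAT ATAC libraries held 3959384 to 12811242 tags in regions and BAT RNA libraries 4980147 to 46274438 counts.

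The regions and gene lists were chosen with earlier results of these data known. Named are all clock regions (the most open of a gene), the 10 smallest rhythm p-values, up to 4 called regions per other list, 9 fixed genes, the 5 smallest p-values in each direction of the dark contrast, and the 5 most and least open regions, passing over gene models, pseudogenes and antisense genes. A few genes that this rule names are not reported here.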

Additional observations from a re-analysis of the deposited data

How the results depend on the processing

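The number of rhythmic promoters was 1466, and 1393 with RLE factors, 1466 without the filter, 1863 with DESeq2, 1762 with time as a factor and 1322 with 1 region per gene. It was 713 with scaling over promoters, 159 with the promoter share as a covariate, and 942 to 1503 without single libraries. Leaving out libraries under that scaling gave 531 to 753. Dark against light gave 1299, with 1264 for RLE factors, 925 for DESeq2 and 1176 for 1 region per gene, but 610 with scaling over promoters, 2 with the covariate, and 838 to 1588 without single libraries. Under that scaling it was 418 to 686 without single libraries. Rhythmic RNA went from 833 genes to 1773 with DESeq2, 1179 without the filter, and 345 to 2455 without single libraries. Genes rhythmic in both went from 176 to 164 with the region nearest to the start, 540 at an adjusted p under 0.10, 112 with scaling over promoters, and 93 to 405 without single RNA libraries. The last 2 settings of this count, and leaving out libraries with scaling over promoters, were added after seeing the data. Within 100 bp of the start, promoters held 24.74% of tags against 36.73% for all. The correlation of level with TPM was 0.18, and 0.25 with all genes. Overlap of at least 1 bp gave 9010 promoters over WAT regions and 4638 over BMAL1 peaks. The replicate block gave 1313 rhythmic promoters, 1292 for dark against light, and 605 genes with rhythmic RNA. Replicate numbers did not pair the libraries, since 15 of 45 same-numbered ATAC pairs and 14 of 40 RNA pairs had correlated deviations above 0.1, and 8 of 18 ATAC and 7 of 17 RNA libraries correlated best with their own number. They share only a number. Of the values of named regions under the alternatives, 2191 stayed on their side of the threshold, 282 lost a call, 20 gained one and 3 turned their time of peak by more than 6 h, all with the promoter share as a covariate: Pgam1 to a size of 0.0344, Btg2 to 0.0186 and Mrpl40 to 0.163. The least open promoters had the fewest tags, and the part of depth in the calls was not tested. The cause of these changes was not tested.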

Other observations

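Several of the most abundant RNAs of brown fat come from genes with no called promoter region. Cox8b, a brown fat subunit of cytochrome c oxidase, had a mean of 19280 TPM, and Cidea, a lipid droplet protein of brown fat, had 3145 TPM. Other genes of the respiratory chain without a promoter region were Uqcr10 (7738 TPM), Ndufa1 (5930 TPM), Ndufb3 (4258 TPM), Cox7b (3137 TPM) and the ATP synthase gene Atp5h (3691 TPM). Chchd10, a mitochondrial protein, had 4116 TPM and the fatty acid binding protein gene Fabp3 had 3156 TPM. These genes are among the 12 with the highest TPM that lack a promoter region, and they were named after their values were seen. Whether their start sites are accessible but credited to another gene was not tested.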
